A study of Arabidopsis thaliana with 4 samples.

Results

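Jasmonates are plant hormones made from linolenic acid, and the 10 genes described here encode the enzymes that carry this fatty acid through the plastid steps and the first peroxisomal step of their synthesis. They were taken by locus name from the 33316 loci in the files and comprise the lipoxygenase genes LOX2 (AT3G45140), LOX3 (AT1G17420), LOX4 (AT1G72520) and LOX6 (AT1G67560), the allene oxide synthase gene AOS (AT5G42650), the allene oxide cyclase genes AOC1 (AT3G25760), AOC2 (AT3G25770), AOC3 (AT3G25780) and AOC4 (AT1G13280), and the reductase gene OPR3 (AT2G06050). All 10 genes passed the filter on low counts. In the plastid a lipoxygenase oxygenates linolenic acid, AOS turns the product into an unstable allene oxide, and an AOC enzyme closes the ring to give OPDA. OPR3 reduces OPDA in the peroxisome, where β-oxidation then shortens the side chain to jasmonic acid. Jasmonates are best known for wound and herbivore responses and for stamen development, and jasmonate signalling is also known to promote cambium activity in the Arabidopsis stem.

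The study sequenced polyadenylated RNA from the stem base of Arabidopsis thaliana, with 2 libraries from the mutant mol1-1 and 2 from the wild type (WT, accession Col-0). The mutation lies in MOL1, which encodes a receptor-like kinase known to restrain lateral growth of the stem, and the mutant is represented by a single allele. All plants were raised at 21 °C in short days (8 h light, 16 h dark) for 3 weeks and then moved to long days (16 h light, 8 h dark). From stems 15 to 20 cm tall, a piece of 1 cm directly above the topmost rosette leaf was taken. The labels do not say whether the replicates came from separate pools of plants, so p-values measure the spread between these samples, which may be technical. The tissue holds many cell types, and fewer cells of a type and less RNA per cell cannot be told apart.

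MOL1 (AT5G51350) had 342 and 264 exon reads in the mol1-1 libraries, against 938 and 825 in the WT libraries. It fell by 1.66 on the log2 scale in mol1-1 (SE 0.12, adjusted p = 0.0217, edgeR's quasi-likelihood test with Benjamini-Hochberg adjustment). Exon reads in named loci numbered 28570901 to 37059413 in the mol1-1 libraries and 28017346 to 30794836 in the WT libraries. The threshold of 0.05 on the adjusted p was met by 38 of 19024 genes. Markers of xylem (5 genes), phloem (3), cambium (3), epidermis (4) and green tissue (5) were all detected, and no gene of these lists passed the test. All 4 epidermis markers had log2 fold changes below 0 (median -0.37). In 3 of them both mol1-1 libraries lay below both WT libraries, as in 21.3% of all genes. All 5 green tissue markers lay above 0 (median 0.22), and all 5 were highest in mol1-1 replicate 2. Their summed RPKM was 7212 and 11213 in mol1-1 replicates 1 and 2, against 7947 and 7585 in the WT replicates. That of the xylem markers was 3248 and 2065 in mol1-1, against 2452 and 3318 in WT. The part of tissue makeup in the results was not tested. The floral organ genes AP1, AP3, PI and AG stayed under 1 RPKM in every library, and 2 of 3 root markers were listed at 0 throughout. RPKM are the authors' values, exon reads scaled to exon length and to the library's gene reads, and are the scale on which levels of different genes are compared below.

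None of the 10 synthesis genes passed the test between mol1-1 and WT. The share of all tested genes that passed was 0.200%, with 0.189% higher and 0.0105% lower in mol1-1. At an unadjusted p under 0.05, 2 of the 10 genes remained, AOC3 and LOX2, against 5.94% of all genes. DESeq2 called 0 of the 10 (1.52% of all genes called) and limma-voom likewise 0 (0.173% called). Their fold changes pointed both ways, 6 above and 4 below 0, with a median of 0.24 on the log2 scale, beside -0.01 over all genes tested. Replicates of 1 genotype differed 7.95-fold or more for LOX2 (in WT) and for LOX3 and LOX4 (in mol1-1).

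**Figure D1:**
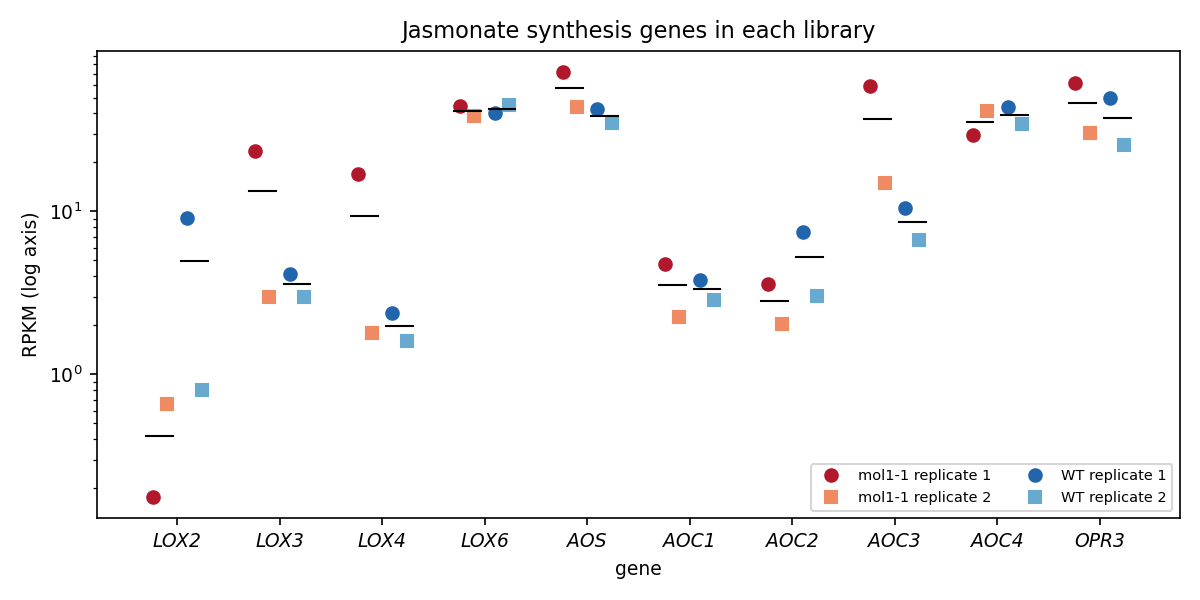
RPKM of the 10 jasmonate synthesis genes (log axis) in each of the 4 libraries, with horizontal bars at the mean of each genotype (n = 2). LOX3, LOX4 and AOC3 stand highest in mol1-1 replicate 1, LOX2 in WT replicate 1, and LOX6 lies between 38.5 and 45.2 RPKM in all 4 libraries.

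Among the lipoxygenase genes, LOX6 was the most abundant in every library. LOX6, whose enzyme is known for rapid jasmonate formation in tissue distant from a wound and is active near the xylem, measured 44.3 and 38.5 RPKM in mol1-1 replicates 1 and 2, against 40.2 and 45.2 RPKM in WT replicates 1 and 2. The genotypes overlapped, and the log2 fold change was -0.01 (SE 0.16, adjusted p = 0.998, edgeR). LOX6 made up 52.1% and 87.7% of the summed RPKM of the 4 LOX genes in the mol1-1 libraries, against 72.1% and 89.3% in the WT libraries. The share differed between libraries more than the level of LOX6 did.

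LOX3 and LOX4 are close copies whose enzymes are jointly required for male fertility. LOX3 measured 23.6 and 2.97 RPKM in mol1-1 replicates 1 and 2, against 4.16 and 3.0 RPKM in the WT replicates. LOX4 showed 16.9 and 1.80 RPKM in the mol1-1 replicates, against 2.37 and 1.60 RPKM in the WT replicates. Both genes were high in mol1-1 replicate 1, while mol1-1 replicate 2 lay below or within the WT values, so the genotypes overlapped. Replicate 1 exceeded replicate 2 of the mutant 7.95-fold for LOX3 and 9.37-fold for LOX4, whereas the median ratio over all tested genes was 0.960. The log2 fold changes were 1.95 for LOX3 (SE 0.87, adjusted p = 0.896, edgeR) and 2.29 for LOX4 (SE 0.95, adjusted p = 0.852, edgeR). Without mol1-1 replicate 1 they were -0.27 and -0.15, and without mol1-1 replicate 2 they were 2.78 and 3.14. The last fit keeps only the mutant library where both were high and takes its error from the WT replicates. It thus compares that library, not the genotype, with WT. The coding sequences of LOX3 and LOX4 are 79.7% identical. All exon reads of both were counted as unique, so no read was shared between them in these counts.

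Since LOX3 and LOX4 moved together more closely than any other pair of the 10 genes, the 250 bases before their RefSeq gene starts are shown (assembly TAIR10.1, plus strand). The window of LOX3 is chr1:5977073-5977322 and that of LOX4 is chr1:27308263-27308512. AOC3, at chr3:9408910-9409159 on the plus strand, is added because it shared the high value in mol1-1 replicate 1. AOS, at chr5:17099596-17099845 on the minus strand, is added as the only window of the 10 with a G-box. Capitals mark the G-box CACGTG, a motif that MYC factors are known to bind, and the W-box core TTGAC, known as a WRKY motif, searched on both strands.
LOX3: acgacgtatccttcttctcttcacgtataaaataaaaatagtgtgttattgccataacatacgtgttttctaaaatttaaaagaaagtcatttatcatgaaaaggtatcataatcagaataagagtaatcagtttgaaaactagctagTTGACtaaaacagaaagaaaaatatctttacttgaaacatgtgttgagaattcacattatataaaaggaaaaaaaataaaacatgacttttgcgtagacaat
LOX4: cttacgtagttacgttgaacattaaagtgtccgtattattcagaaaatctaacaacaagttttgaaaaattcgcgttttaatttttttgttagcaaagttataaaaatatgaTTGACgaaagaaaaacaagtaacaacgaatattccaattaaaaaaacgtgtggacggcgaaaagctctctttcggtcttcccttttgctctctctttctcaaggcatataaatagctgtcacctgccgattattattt
AOC3: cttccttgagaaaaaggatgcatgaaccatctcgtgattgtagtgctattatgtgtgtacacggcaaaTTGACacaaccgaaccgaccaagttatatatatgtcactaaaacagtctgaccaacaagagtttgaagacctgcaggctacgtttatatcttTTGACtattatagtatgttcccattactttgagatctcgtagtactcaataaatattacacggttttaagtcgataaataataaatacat
AOS: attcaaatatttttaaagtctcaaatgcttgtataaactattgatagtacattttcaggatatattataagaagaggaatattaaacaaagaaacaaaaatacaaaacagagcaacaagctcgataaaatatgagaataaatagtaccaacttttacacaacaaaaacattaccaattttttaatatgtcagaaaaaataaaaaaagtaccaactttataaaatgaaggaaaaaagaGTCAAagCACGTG

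CACGTG was found in 1 of the 10 windows, that of AOS, 6 bases before the gene start, and in 6.49% of 27443 windows of the same length genome-wide. TTGAC was found in 7 of the 10 windows and in 44.9% of all windows. TGACG, the core bound by TGA factors, was found in 2 of the 10, LOX4 and LOX6, and in 18.6% of all windows, and its match in LOX4 overlaps the TTGAC there. GCCGCC, the element bound by ethylene response factors, was found in 0 of the 10 and in 1.87% of all windows. These are matches of letters only. The study's notes name build TAIR10 and the files carry no coordinates, so the windows rest on the RefSeq gene starts alone.

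LOX2, the enzyme behind most wound-induced jasmonate in leaves, had the opposite pattern. It measured 0.178 and 0.656 RPKM in mol1-1 replicates 1 and 2, against 9.07 and 0.804 RPKM in WT replicates 1 and 2. In exon reads this was 19 and 54 in mol1-1, against 806 and 65 in WT. Both mutant libraries lay below both WT libraries, a position shared by 21.3% of all genes tested, but WT replicate 1 stood 11.3-fold above WT replicate 2. The fold change was -3.57 on the log2 scale (SE 1.17, adjusted p = 0.637, edgeR), and without WT replicate 1 it was -0.98. Without WT replicate 2 it was -4.42, and passed (adjusted p = 0.0140, edgeR), when 0.456% of all genes did. That last fit keeps only the WT library where LOX2 was high and takes its error from the mol1-1 replicates. Its call thus compares WT replicate 1, not the genotype, with mol1-1. The span of LOX2 between the highest and lowest library, 51.0-fold, exceeded that of each of the other 9 genes.

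WT replicate 1, where LOX2 was high, also held the highest values of VSP1 and VSP2, storage protein genes widely used as jasmonate markers in leaves. VSP2 measured 16.6 and 9.18 RPKM in mol1-1, against 74.7 and 8.86 RPKM in WT replicates 1 and 2. VSP1 measured 2.31 and 3.12 RPKM in mol1-1, against 13.4 and 1.35 RPKM in WT. Of the 9 output genes listed, 5 were highest in WT replicate 1, 2 in mol1-1 replicate 1 and 2 in mol1-1 replicate 2. Among the 5, PDF1.2 and CORI3 had 31 and 52 exon reads in WT replicate 1 and did not pass the filter on low counts. The share of all genes highest in WT replicate 1 is not given here. The summed RPKM of the 4 floral genes in the files was 0.309 and 0.217 in mol1-1, against 1.47 and 0.0857 in WT, so it too was highest in WT replicate 1. The part of floral or other tissue in the LOX2 values was not tested.

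AOS, which catalyses the committed step toward jasmonates and is a gene of 1 exon in the files, was among the most abundant of the 10. It measured 71.7 and 43.5 RPKM in mol1-1, against 42.4 and 34.7 RPKM in WT. Both mutant libraries lay above both WT libraries, as they did for 13.0% of all genes, although mol1-1 replicate 2 exceeded WT replicate 1 by little. The means were 57.6 ± 20.0 RPKM in mol1-1 and 38.5 ± 5.45 RPKM in WT (SD, n = 2 each). On the log2 scale mol1-1 stood at 0.62 over WT (SE 0.27, adjusted p = 0.890, edgeR). Without mol1-1 replicate 1 the fold change was 0.17. Without mol1-1 replicate 2 it was 0.96, with the error taken from the WT replicates.

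The AOC genes encode isoforms of the same cyclase. AOC3 was the gene of the 10 with the smallest p. It measured 58.6 and 14.9 RPKM in mol1-1 replicates 1 and 2, against 10.5 and 6.69 RPKM in WT replicates 1 and 2. Both mutant libraries were above both WT libraries. AOC3 and AOS were the only 2 of the 10 genes in that position, which 13.0% of all genes shared. The log2 fold change was 2.15 (SE 0.64, unadjusted p = 0.0162, adjusted p = 0.570, edgeR). Unlike LOX3 and LOX4, AOC3 kept its direction without mol1-1 replicate 1, at 0.79 (adjusted p = 0.157, edgeR). Without mol1-1 replicate 2 the value was 2.83, with the error taken from the WT replicates. With the replicate number as a block it was 1.88 (adjusted p = 0.0424, edgeR), in a fit that called 0.715% of all genes. The numbers are not stated to pair the libraries, and same-numbered libraries deviated against each other (correlation -0.238). That call thus rests on a pairing that the labels do not give.

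AOC4 was the most abundant isoform in mol1-1 replicate 2 and in both WT libraries. It measured 29.3 and 41.0 RPKM in mol1-1, against 44.0 and 34.4 RPKM in WT. The genotypes overlapped, at -0.13 on the log2 scale (SE 0.19, adjusted p = 0.997, edgeR). AOC1 measured 4.78 and 2.24 RPKM in mol1-1, against 3.80 and 2.84 RPKM in WT, and AOC2 measured 3.60 and 2.04 RPKM in mol1-1, against 7.43 and 3.01 RPKM in WT. Neither separated the genotypes, and AOC2 was highest in WT replicate 1. Their log2 fold changes were 0.13 for AOC1 (SE 0.41, adjusted p = 0.997) and -0.83 for AOC2 (SE 0.49, adjusted p = 0.978, edgeR). The value of AOC2 depended on single libraries, at -0.076 without WT replicate 1, -1.30 without WT replicate 2, -1.36 without mol1-1 replicate 1 and -0.47 without mol1-1 replicate 2, and it passed in none of these fits.

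As a share of the summed RPKM of the 4 AOC genes, AOC3 made up 60.9% and 24.7% in the mol1-1 libraries, against 16.0% and 14.3% in the WT libraries. The shares of AOC1, at 4.97% and 3.72% in mol1-1, against 5.79% and 6.07% in WT, and of AOC2, at 3.74% and 3.39% in mol1-1, against 11.3% and 6.41% in WT, were lower in both mutant libraries. The genotypes did not overlap in any of these 3 shares. For each, the 2-sided exact permutation p was 0.333, the smallest that 2 against 2 libraries can give. As parts of the same sum, the 3 are not separate results. AOC1 had its highest RPKM, 4.78, in mol1-1 replicate 1, where AOC3 made up 60.9% of the sum. The share of LOX2 in the LOX sum did not overlap either, at 0.209% and 1.49% in mol1-1, against 16.3% and 1.59% in WT. How often such shares separate over all genes was not computed. AOC4 made up 30.4% and 68.2% in mol1-1, against 66.9% and 73.3% in WT, and here the genotypes overlapped. AOC3 was thus the leading isoform in mol1-1 replicate 1 and the next after AOC4 in the other 3 libraries. The summed RPKM of the family was 96.2 and 60.2 in mol1-1, against 65.7 and 46.9 in WT, and that of the LOX genes was 84.9 and 44.0 in mol1-1, against 55.8 and 50.6 in WT.

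**Figure D2:**
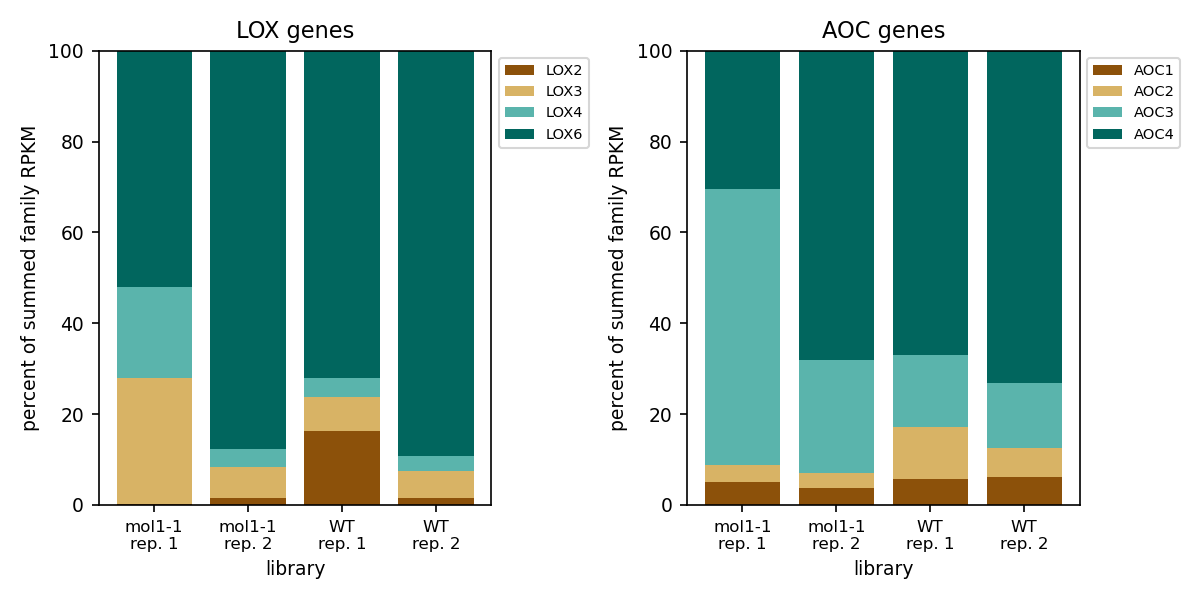
Share of each gene (percent) in the summed RPKM of the 4 LOX genes (left panel) and the 4 AOC genes (right panel), with 1 bar per library. AOC3 takes 60.9% of the AOC bar in mol1-1 replicate 1 and 14.3% to 24.7% in the other 3 libraries, and LOX2 takes 16.3% of the LOX bar only in WT replicate 1.

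AOC1, AOC2 and AOC3 lie in a row on the plus strand of chromosome 3 (TAIR10.1), with 1330 bases between AOC1 and AOC2 and 1088 bases between AOC2 and AOC3. Their coding sequences are 89.9% identical between AOC1 and AOC2, 81.5% between AOC1 and AOC3 and 80.8% between AOC2 and AOC3, while AOC4 on chromosome 1 is closest to AOC3 at 76.6%. AOC1 and AOC3 share their longest identical run, 73 bases, which is shown here with the matching stretch of the other isoforms because reads within it cannot be assigned to a single gene. Capitals mark the bases that differ from AOC1. The stretch covers coding bases 329 to 401 of AOC1, 326 to 398 of AOC2, 341 to 413 of AOC3 and 329 to 401 of AOC4, read from RefSeq TAIR10.1.
AOC1: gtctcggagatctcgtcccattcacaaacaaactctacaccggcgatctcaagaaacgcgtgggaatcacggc
AOC2: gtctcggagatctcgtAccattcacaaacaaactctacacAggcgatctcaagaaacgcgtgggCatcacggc
AOC3: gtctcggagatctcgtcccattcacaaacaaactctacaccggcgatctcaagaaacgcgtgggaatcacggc
AOC4: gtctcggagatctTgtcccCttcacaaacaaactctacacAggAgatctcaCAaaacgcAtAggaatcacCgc

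AOC2 differs from AOC1 at 3 and AOC4 at 9 of these bases. In the counts, AOC1 and AOC3 were the only 2 of the 10 genes with exon reads that were not unique. For AOC3 these were 73 of 2222 and 14 of 435 exon reads in mol1-1, against 5 of 331 and 2 of 192 in WT. For AOC1 they were 2 of 180 and 2 of 65 in mol1-1, against 1 of 119 and 2 of 81 in WT. Such reads were thus a small part of either gene's count, and with unique reads alone the direction of AOC3 was the same. How the counting program placed reads between these copies is not given in the sources used here.

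OPR3, whose loss makes Arabidopsis male-sterile for lack of jasmonate, differed between replicates in both genotypes. It measured 61.5 and 30.4 RPKM in mol1-1, against 49.3 and 25.4 RPKM in WT. Replicate 1 was about as far above replicate 2 in the mutant as in WT, and the genotypes overlapped. The means were 46.0 ± 22.0 RPKM in mol1-1 and 37.4 ± 16.9 RPKM in WT (SD, n = 2 each). On the log2 scale mol1-1 stood at 0.35 over WT (SE 0.42, adjusted p = 0.997, edgeR). Without mol1-1 replicate 1 the fold change was -0.30.

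Reads that fell in the OPR3 gene but outside its annotated exons had their largest share in mol1-1 replicate 1. They were 300 of 4086 gene reads in mol1-1 replicate 1 and 21 of 1464 in replicate 2, against 38 of 2562 and 22 of 1204 in the WT replicates. As shares these were 7.34% (6.58% to 8.18%) and 1.43% (0.940% to 2.18%) in mol1-1, against 1.48% (1.08% to 2.03%) and 1.83% (1.21% to 2.75%) in WT, with Wilson 95% intervals that cover counting error only. Over all tested genes the share was 0.669% and 0.567% in mol1-1, against 0.696% and 0.692% in WT. Reads outside exons are here total gene reads less total exon reads. The files count 49 and 1 intron reads for OPR3 in mol1-1, against 4 and 4 in WT. Intron reads are not simply a part of the reads outside exons. LOX3 in mol1-1 replicate 2 had 4 intron reads and 0 reads outside exons. What the 300 reads were cannot be read from these counts. LOX4 also had its highest share in mol1-1 replicate 1, at 2.77% (2.13% to 3.59%), while AOC3 had 3.60% and 3.55% in mol1-1, against 2.36% and 1.03% in WT. The excess in mol1-1 replicate 1 was shared by other listed genes. Among them were the turnover gene ILL6, the ligase gene OPCL1 and the repressor genes JAZ6 and JAZ10. Such genes were not counted over the lists. Reads outside exons of ILL6 were 152 of 1436 and 20 of 542 in mol1-1, against 45 of 1138 and 17 of 532 in WT. Those of JAZ6 were 648 of 7772 and 106 of 2775 in mol1-1, against 175 of 4161 and 70 of 1804 in WT. For OPCL1 they were 317 of 6309 and 46 of 1970 in mol1-1, against 50 of 2898 and 26 of 1657 in WT. JAZ10 had 53 of 1039 in mol1-1 replicate 1 and 0 in each other library. In HPL1, a related enzyme gene, WT replicate 1 held the most, 66 of 392, against 10 of 134 in mol1-1 replicate 1. Use of strand is not stated, so reads from an overlapping transcript on the other strand cannot be told apart from reads of the gene.

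**Figure D3:**
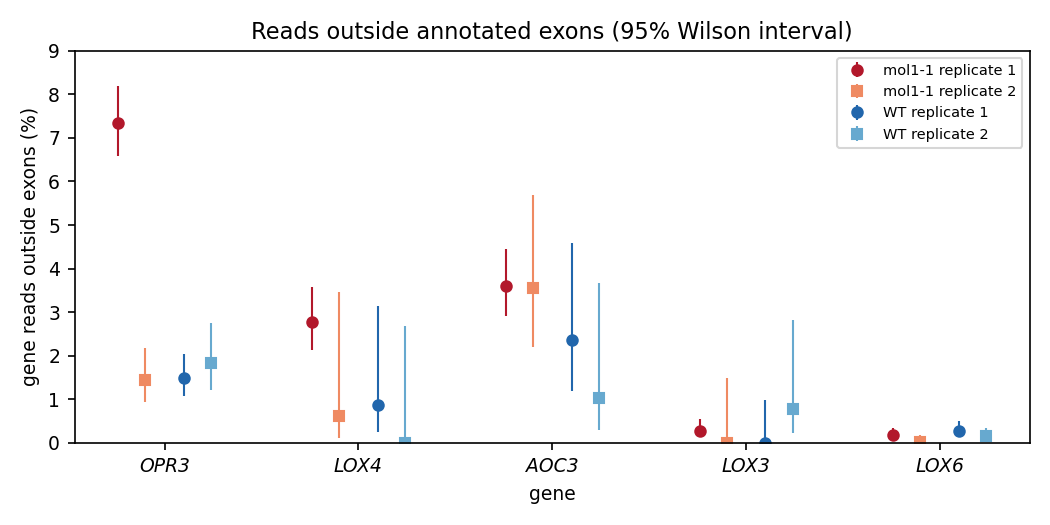
Percent of gene reads outside annotated exons for OPR3, LOX4, AOC3, LOX3 and LOX6 in each of the 4 libraries, with Wilson 95% intervals. Reads outside exons are total gene reads less total exon reads. OPR3 in mol1-1 replicate 1 stands at 7.34%, above the intervals of the other 3 libraries.

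By mean level the 10 genes spanned a wide range. In mol1-1 the order was AOS, OPR3, LOX6, AOC3, AOC4, LOX3, LOX4, AOC1, AOC2 and LOX2, with means of 57.6 down to 0.417 RPKM. In WT it was LOX6, AOC4, AOS, OPR3, AOC3, AOC2, LOX2, LOX3, AOC1 and LOX4, with means of 42.7 down to 1.99 RPKM. Neighbours in these orders were separated beyond the spread of their libraries only between AOC4 and LOX3 and between AOC2 and LOX2 in mol1-1, and between OPR3 and AOC3 and between AOC1 and LOX4 in WT. AOC3 averaged 36.7 ± 30.9 RPKM in mol1-1 and 8.59 ± 2.69 RPKM in WT, and LOX2 averaged 0.417 ± 0.338 RPKM in mol1-1 and 4.94 ± 5.85 RPKM in WT (SD, n = 2 each).

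The spread between single libraries was wide for these genes. The highest library exceeded the lowest by a median of 3.03-fold over the 10 genes and 1.33-fold over the 19009 genes with values above 0 throughout, and by at least 5-fold in 4 of the 10 and in 1.79% of those genes. In mol1-1 replicate 1, LOX3, LOX4 and AOC3 stood at least 2-fold above the highest of the other libraries, as did 0.315% of all genes. In WT replicate 1, LOX2 and AOC2 did so, as did 0.573% of all genes. None of the 10 did so in mol1-1 replicate 2 (0.557% of all genes) or WT replicate 2 (0.0263%). The median deviation of the 10 genes from their own mean log2 CPM was 0.62 and -0.46 in mol1-1 replicates 1 and 2, against 0.03 and -0.34 in WT replicates 1 and 2.

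**Figure D4:**
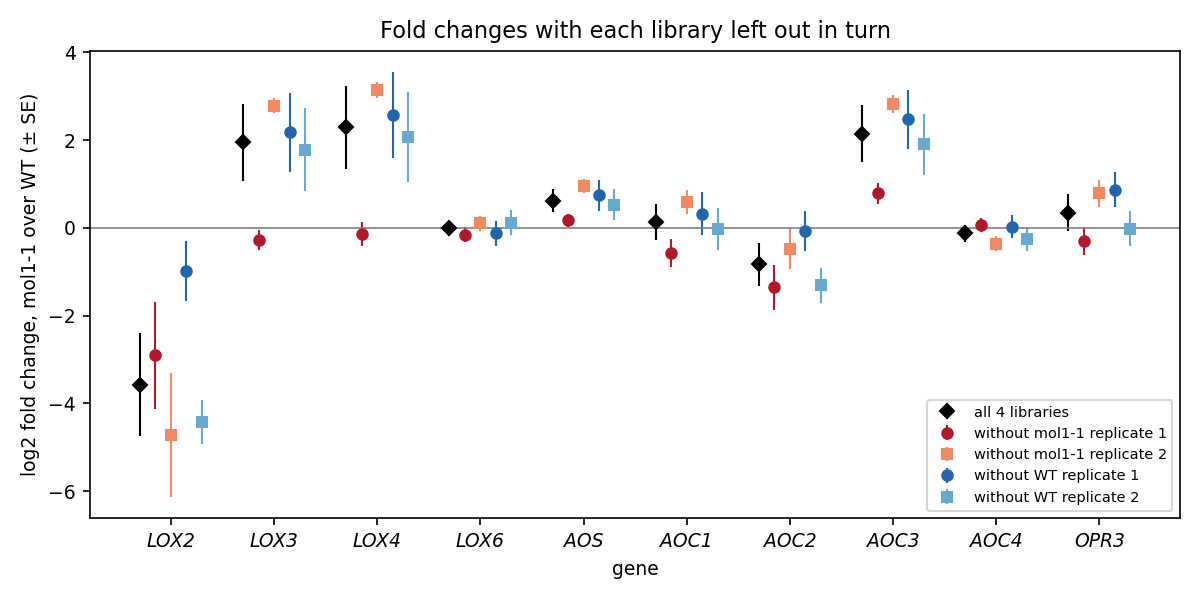
Log2 fold change (mol1-1 over WT, ± SE, edgeR) of the 10 genes with all 4 libraries and with each library left out in turn. LOX3 and LOX4 lie at 1.95 and 2.29 with all libraries and at -0.27 and -0.15 without mol1-1 replicate 1, while AOC3 stays above 0 in every fit.

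With mol1-1 replicate 2 left out, 4 of the 10 genes passed the test (LOX3, LOX4, AOS and AOC3), when 1.09% of all genes passed. With mol1-1 replicate 1 left out, 0 of the 10 passed in edgeR's test, although 409 of 19437 genes passed in all. The wide spread thus rested on mol1-1 replicate 1 for LOX3 and LOX4, and on WT replicate 1 for LOX2. Each fit without a mutant library takes its error from the WT replicates, so its calls compare the remaining mutant library with WT. What set mol1-1 replicate 1 and WT replicate 1 apart was not tested.

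The pathway genes around the 10 enzymes were read from lists by function. Upstream, 5 of 7 genes that supply or release linolenic acid were tested and none passed, with a median log2 fold change of 0.03. PLIP2, a plastid lipase known to release fatty acids for jasmonate synthesis, measured 8.70 and 8.13 RPKM in mol1-1, against 2.24 and 3.19 RPKM in WT. Its replicates lay close together, and both mutant libraries lay above both WT libraries, as in 13.0% of all genes. The log2 fold change was 1.66 (SE 0.21, adjusted p = 0.0717, edgeR), and DESeq2 gave an adjusted p of 1.15e-07. Without mol1-1 replicate 1, in which LOX3, LOX4 and AOC3 were high, PLIP2 remained at 1.58, and without mol1-1 replicate 2 at 1.74. With the replicate number as a block it was 1.68 (adjusted p = 0.0158, edgeR), though the numbers are not stated to pair the libraries. In limma-voom PLIP2 did not pass. FAD8, a plastid desaturase, had a log2 fold change of -0.68 (adjusted p = 0.978, edgeR), and the flower lipase gene DAD1 was listed at 0 in all libraries.

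Downstream, none of the 13 export, import and β-oxidation genes passed, with a median of 0.05. OPCL1, a ligase that activates OPR3's product for β-oxidation, measured 82.3 and 34.3 RPKM in mol1-1, against 47.1 and 29.6 RPKM in WT, and like OPR3 was higher in replicate 1 of each genotype. Its log2 fold change was 0.65 (adjusted p = 0.997, edgeR), and that of the thiolase gene KAT5 was -0.49 (adjusted p = 0.700, edgeR). None of 5 related enzymes outside the pathway passed (median -0.02). Among them OPR1 and OPR2, relatives of OPR3 with other main roles, had log2 fold changes of 0.33 and 0.49 (adjusted p = 0.750 and 0.665, edgeR). Of 13 conjugation and turnover genes 9 were tested and none passed, with a median of -0.19. JAR1, which joins jasmonic acid to isoleucine to give the active hormone, had -0.40 (adjusted p = 0.596, edgeR), and CYP94B1, which oxidises that conjugate, had -0.92 (adjusted p = 0.880, edgeR).

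In perception and repression, 18 of 19 genes were tested and none passed, with a median log2 fold change of 0.51. JAZ7, a repressor gene, measured 27.9 and 3.92 RPKM in mol1-1, against 0.519 and 0.363 RPKM in WT, or 5.21 on the log2 scale (SE 1.11, adjusted p = 0.292, edgeR). MYC2, the main transcription factor of the response, measured 136 and 43.9 RPKM in mol1-1, against 36.8 and 20.3 RPKM in WT, at 1.71 (adjusted p = 0.655, edgeR). For both genes mol1-1 replicate 1 was far above mol1-1 replicate 2, which itself lay above both WT libraries. Without mol1-1 replicate 1 JAZ7 stood at 3.12. Without mol1-1 replicate 2, MYC2 stood at 2.31, JAZ1 at 2.40, JAZ7 at 6.02, JAZ8 at 4.03 and JAZ10 at 2.86. That fit kept only the mutant library in which these genes were high. The turnover gene CYP94C1 stood at 1.17 in it and at 0.74 with all libraries. With the replicate block, whose numbers are not stated to pair the libraries, JAZ1 (1.55), JAZ5 (1.36), JAZ7 (4.93) and JAZ8 (3.29) passed. That fit called 0.715% of all genes. Of 9 output genes 7 were tested and none passed (median 0.14). ERF1, a factor of ethylene and jasmonate responses, had a log2 fold change of 1.17 (adjusted p = 0.665, edgeR), and VSP2 had -1.63 (adjusted p = 0.962, edgeR). Without WT replicate 2, which leaves only the WT library where both were high, VSP1 stood at -2.24 and VSP2 at -2.45. Of these 66 other genes 57 were tested, and 0 passed in edgeR (0.200% of all genes tested) and 0 in limma-voom (0.173%). An unadjusted p under 0.05 in edgeR was met by 10 of the 57 (5.94% of all genes). DESeq2 called 2, PLIP2 and JAZ7 (1.52% of all genes).

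Among 12 rapid touch and wound genes, a list chosen with earlier results of these data known, 6 rose and none fell in mol1-1, where 0.189% of all genes tested rose. Their median log2 fold change was 2.14, and all 12 had both mutant libraries above both WT libraries, as had 13.0% of all genes. ERF6 and ERF105, ethylene response factor genes, rose by 3.45 and 3.78, and TCH4, a touch-induced gene for a cell wall enzyme, rose by 3.93 (adjusted p = 0.0213 each, edgeR). Their replicates lay close together, with TCH4 at 67.5 and 74.8 RPKM in mol1-1, against 6.10 and 3.45 RPKM in WT. Between the mutant replicates, 5 of the 12 genes were higher in replicate 1 and 7 in replicate 2. WRKY40, a transcription factor gene, had a gap between mutant replicates like that of LOX3 and LOX4, at 43.2 and 4.53 RPKM in mol1-1, against 0.508 and 0.440 RPKM in WT. For LOX3 and LOX4, mol1-1 replicate 2 was at the WT level, whereas for WRKY40 it was above both WT libraries.

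**Figure D5:**
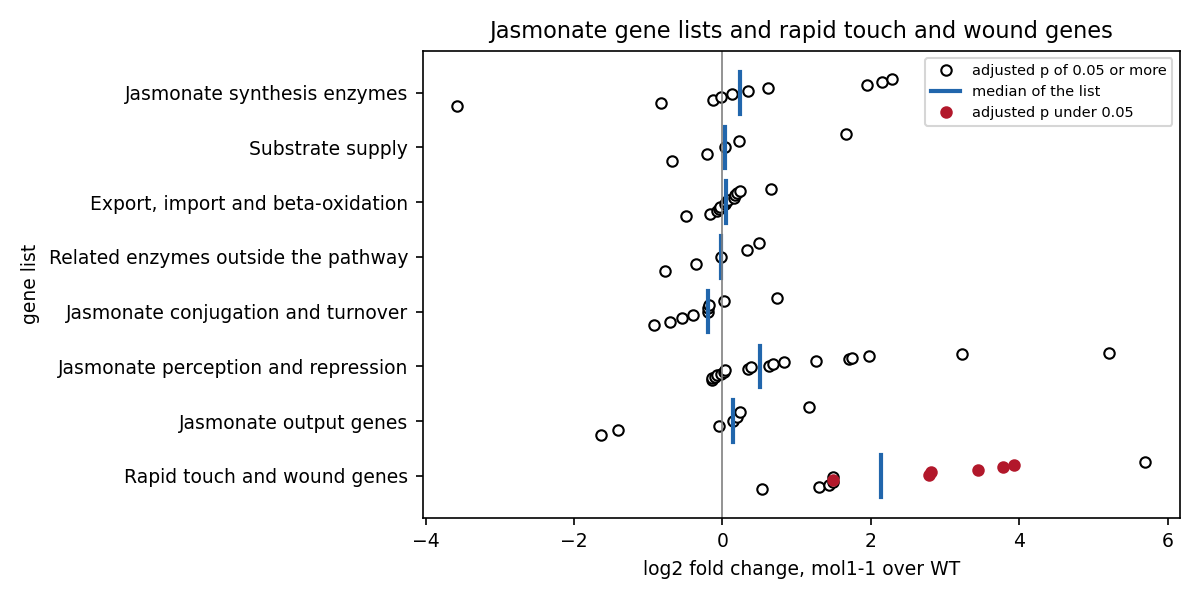
Log2 fold change (mol1-1 over WT) of every tested gene in 8 lists, with a bar at each list's median and filled points for genes with an adjusted p under 0.05 in edgeR's test. The 10 synthesis genes spread from -3.57 to 2.29 around a median of 0.24 with no filled point, and the touch and wound list lies wholly above 0 around 2.14.

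Likeness to other genes was measured as the Euclidean distance between log2 CPM deviations from each gene's own mean over the 4 libraries, where 0 is an identical pattern. LOX3 was closest to CNGC19, a calcium channel gene (0.40), JAZ10, a repressor gene (0.51), and CCR2, a cinnamoyl-CoA reductase gene (0.71). JAZ10 measured 16.8 and 1.41 RPKM in mol1-1, against 2.52 and 2.30 RPKM in WT, which is the library pattern of LOX3. AOC3 was closest to NAC3 (0.37), AT1G53903 (0.39) and AT5G44350 (0.42), and OPR3 to AT5G61100, PES2 and AT1G56320 (0.22 each). LOX2 had no near match, with AT2G27385 (1.48), AT3G52130 (1.74) and the terpene synthase gene TPS02 (1.79) the closest. Among the 10 genes themselves LOX3 and LOX4 were the closest pair (0.31). With 4 libraries these distances describe the samples and carry no test.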

How the data were processed

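The files the authors deposited give, per the file headers, read counts for each locus (total and unique reads in exons and in genes, junction reads and intron reads), RPKM and a median coverage signal. The deposited RPKM could be recomputed from total exon reads, exon length and total gene reads within a relative difference of 2.17e-14. The submitters' processing notes name TAIR10. Aligner, counting program and strand: not given in the sources used here. Of the 33323 rows per file, 5 had no locus name (0.0586% to 0.0864% of exon reads) and were dropped, and 2 loci listed more than once were summed.

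The test on total exon reads was run in edgeR 4.0.16 (R 4.3.3), with filterByExpr by genotype, TMM scaling (factors 0.971 to 1.03), the quasi-likelihood test without covariates, and Benjamini-Hochberg adjustment over 19024 genes at 0.05. The SE is the log2 fold change divided by the square root of F. Log2 CPM for distances used a prior count of 2. Replicates differed beyond sampling noise (chi-square per degree of freedom 64.6 in mol1-1 and 29.8 in WT), and each counted as 1 sample. Alternatives were DESeq2 1.42.0, limma-voom (limma 3.58.1), other scaling, filters and read classes, limma on log2 RPKM with a pseudocount of 0.1 or 1, a replicate block, and each library left out, where the remaining library of a genotype borrows its spread from the other genotype. Upstream windows and coding sequences were read from RefSeq TAIR10.1 with Python 3.11.15 and compared with Biopython 1.88.

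The 10 genes and all lists were chosen with earlier results of these data known. All 10 genes are named. From each jasmonate pathway, related enzyme or touch list, up to 3 passing genes by smallest p are named, otherwise the 2 with the smallest p as values, and for AOC3, LOX2, LOX3 and OPR3 the 3 nearest genes. VSP1, PDF1.2, CORI3, CYP94C1, ILL6, HPL1, WRKY40, DAD1 and the JAZ genes other than JAZ7 were picked after their values were seen. So were the reads outside exons and the single-library patterns.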

Additional observations from a re-analysis of the deposited data

How the results depend on the processing

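Over 15 alternatives, the 10 log2 fold changes kept their direction and side of the threshold in 133 values, turned direction in 11 and newly passed in 6. The number of genes passing, 38 in the main test, came to 290 in DESeq2, to 141 without a filter on low counts, and to 37 to 409 with a library left out. Of the 10 genes, 0 to 4 passed with a library left out. Those fits gave -0.27 to 2.78 for LOX3, -0.15 to 3.14 for LOX4, -0.16 to 0.12 for LOX6, -0.57 to 0.58 for AOC1, -1.36 to -0.076 for AOC2, -0.36 to 0.063 for AOC4 and -0.30 to 0.87 for OPR3. LOX3 and LOX4 turned only without mol1-1 replicate 1. On log2 RPKM with a pseudocount of 0.1, AOC1 had -0.0037. The causes were not tested.

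The replicate numbers are not stated to pair the libraries, and same-numbered libraries deviated against each other (correlation -0.238 over 19024 genes). With the replicate number as a block, 136 genes and 1 of the 10 passed. With the numbers crossed, an alternative chosen after seeing the data, 248 genes and 1 of the 10 passed. With 2 libraries per genotype, a gene that differs between replicates as much as LOX3 has a wide error, so a failed test does not show equal levels. LOX2, AOC1 and AOC2 rest on few reads in most libraries.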
